A study of Mus musculus with 11 samples.

Results

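Hnf4a, Cebpa, Nr1i2, Nr1i3, Nr1h3, Rxra, Esr1 and Nr5a2 are genes of transcription factors and nuclear receptors that act in hepatocytes. They were taken by symbol from the deposited table of mouse liver RNA, in which all 8 were found among 13636 genes. The samples were livers of male C57BL/6J mice fed a Western diet from the age of 8 weeks and then injected for 6 weeks. In 4 libraries the mice had received a mimic of the microRNA miR-30c, in 3 a scramble oligomer and in 4 PBS. The dose of either oligomer was raised from 2.5 mg/kg over 5.0 mg/kg to 7.5 mg/kg. Strain, sex and diet were shared by all groups, and no genetic change is named for any. Nothing in the labels ties a library to a mouse of its own, and p-values therefore reflect only the spread among these libraries, which may be technical.

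Nuclear receptors are transcription factors whose activity is set by small lipophilic molecules. HNF4A, a nuclear receptor that can bind a fatty acid, and C/EBPα, a basic leucine zipper protein, maintain the gene program of the mature hepatocyte. PXR (Nr1i2) and CAR (Nr1i3) sense drugs and bile acids and switch on cytochrome P450 genes, LXRα (Nr1h3) senses oxysterols and LRH-1 (Nr5a2) drives bile acid synthesis genes. PXR, CAR and LXRα bind DNA as heterodimers with RXRα (Rxra), whereas the estrogen receptor ERα (Esr1) binds as a homodimer.

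A microRNA pairs with messenger RNAs mainly through its seed, bases 2 to 8 from the 5′ end. The sequence of the injected mimic is not given in the sources used here, and the natural mature sequences are shown with the seed in capitals because a target site is defined by pairing with it. They come from RefSeq on GRCm38.p6, and the 3 family members that matched share 1 seed.
mmu-miR-30c-5p: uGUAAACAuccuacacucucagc
mmu-miR-30a-5p: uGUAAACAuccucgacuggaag
mmu-miR-30e-5p: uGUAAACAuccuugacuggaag

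The 7-base complement of this seed, TGTTTAC, was searched in the longest 3′ UTR that GENCODE M21 (GRCm38) gives each gene. Nr5a2 held it at 2 places in a 3′ UTR of 2892 bases, and 0 matches were found for the other 7 genes. Of 11449 genes of the table with an annotated 3′ UTR, 16% held a match and 8.18% held the 8-base form with a further A. For the 1589 genes with a 3′ UTR of like length to that of Nr5a2 (the shorter at least 0.8 times the longer), the share was 26.7%. The first match, at UTR position 1380, is the 8-base form, and the second, at position 1775, is followed by T. Both windows lie in 1 exon of the gene on the minus strand of chromosome 1, at chr1:136844066-136844094 and chr1:136843671-136843699. They are shown with the 7 matching bases in capitals.
Nr5a2 first match: ataaaatatagTGTTTACattctttaggt
Nr5a2 second match: ccaaatatatgTGTTTACtatagcatgtc

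A match describes letters and was not tested as a binding site, and no match says only that these letters are not in that 3′ UTR.

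Reads summed over all genes ranged from 39705157 to 60399018 in the mimic libraries, from 74519792 to 88869950 in the scramble libraries and from 62848115 to 101380174 in the PBS libraries. The 8 genes had between 310 reads (Esr1 in a PBS library) and 23932 reads (Hnf4a) per library. Values are CPM with a scaling factor per library, here called scaled CPM. Changes were computed from log2(value + 1), a scale that shrinks those of low genes. Mimic replicates 1 and 4 stood apart. Their rows of major urinary protein (Mup) genes held 12.5% and 11.6% of the counted signal, against 34.8% and 41.3% in mimic replicates 2 and 3 and 37.9% to 52.9% in the 7 control libraries. Their serum amyloid A rows held 2.61% and 2.05%, against 0.699% and 0.72% in mimic replicates 2 and 3 and at most 0.0211% in the controls. Some results are therefore also given without these libraries. For the others the dependence on them is not shown here. When the values were divided by library totals instead, the median gene moved up by 0.49 (log2) in mimic against scramble and by 0.51 in mimic against PBS. The called genes were then 98% and 98.3% higher, in place of 54.2% and 54%, and the changes below are therefore relative to the other genes, not absolute amounts.

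Tissue identity was checked on marker genes. The summed scaled CPM of 12 hepatocyte markers, among them Alb and Apoa1, lay between 42300 and 47200 in mimic livers, 43400 and 48600 in scramble livers and 41800 and 48600 in PBS livers, and 0 markers were at 0. Against scramble 1 of them was higher, Trf at 1.32, and 1 lower, Apoa2 at -0.56, and against PBS 2 were higher and 3 lower. Trf, the iron carrier transferrin, averaged 10110 in mimic livers, 3871 in scramble livers and 3688 in PBS livers, and Alb averaged 12090, 17310 and 17540 in the same order at a limma adjusted p of 0.12 against scramble. The similar sums thus combine a higher mean of Trf with a lower mean of Alb, and do not show that each marker was unchanged. Markers of other cells moved with the mimic as well. All 10 genes of recruited macrophages and monocytes were higher against scramble, their sum being 105 to 143 in mimic livers, 10.2 to 12.7 in scramble livers and 9.12 to 20.3 in PBS livers. So were 5 of 5 measured neutrophil genes, with sums of 16.2 to 35.6, 1.17 to 1.77 and 1.65 to 2.66 in the same order, where Ltf or Ngp was at 0 in some library. Of 10 genes of stellate cells and fibroblasts, 8 were higher and 1 was lower, with sums of 143 to 287, 45.5 to 53.1 and 32.8 to 48.5. Of 9 Kupffer cell genes, 5 were lower and 0 higher, with sums of 52.4 to 116, 80.3 to 153 and 83.8 to 165. Of 10 genes of the sinusoidal endothelium, 2 were higher and 2 lower, with sums of 71.1 to 116, 99.5 to 124 and 96.7 to 125. Of 3 measured bile duct genes 1 was higher and 1 lower, with sums of 35.7 to 42.7, 20.5 to 27.5 and 17.5 to 30.1. With library totals the called counts against scramble were 3 higher and 4 lower for Kupffer cells, 2 higher and 0 lower for endothelium, 2 higher and 1 lower for bile duct, 8 higher and 0 lower for stellate cells and 3 higher and 0 lower for hepatocytes, and those of macrophages and neutrophils did not move. Of all genes, 17.3% were called higher and 14.7% lower against scramble, or 5498 and 110 of 13636 with library totals. Against PBS 20% were called higher and 17.1% lower. In bulk liver, fewer cells of a type and less RNA per cell cannot be told apart, and the part of other cells in the results below was not tested.

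Per kilobase of exon in the basic set of GENCODE transcripts, the level of the 8 genes spanned a wide range. In PBS livers Hnf4a averaged 60.6, Cebpa 57.4, Nr1i3 46.5, Rxra 40.1, Nr1i2 28, Nr1h3 14.5, Nr5a2 4.47 and Esr1 0.813 scaled CPM per kilobase. Hnf4a and Cebpa overlapped between libraries, and so did Nr1i3 with Hnf4a, Cebpa and Rxra, while the last 4 levels were separate from each other. In mimic livers the order was Cebpa at 55.1, Hnf4a at 49.1, Rxra at 39.9, Nr1i3 at 28.6, Nr1i2 at 20.5, Nr1h3 at 14.6, Nr5a2 at 3.91 and Esr1 at 1.99. Neighbours in this order overlapped from Cebpa down to Nr1i2, and the last 4 were again separate. Over the exons of all transcripts, a length chosen after seeing the data, Cebpa stood above Hnf4a and Rxra above Nr1i3 in PBS livers too, at 57.4, 54.7, 37.5 and 34.4, and each of these pairs overlapped. The per-kilobase level over all libraries placed Hnf4a at the 96.1st percentile and Cebpa at the 96th percentile of the 12032 rows with a gene model, and Esr1 at the 36.9th percentile.

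**Figure D1:**
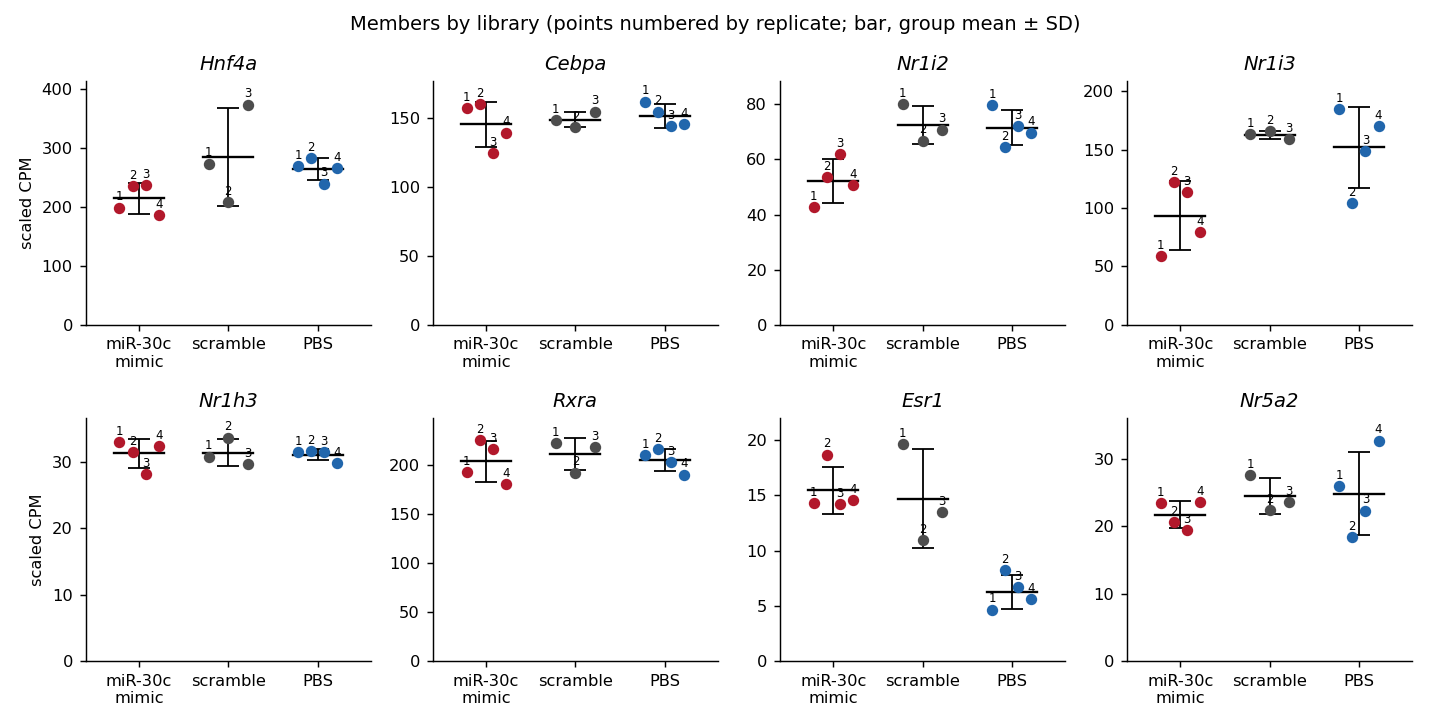
Scaled CPM of each of the 8 genes in every library, in mimic, scramble and PBS livers, with points numbered by replicate and bars for the group mean ± SD (n = 4, 3 and 4). Nr1i2 and Nr1i3 are lower in the mimic libraries (with library totals the change of Nr1i2 was 0.10), Esr1 is low in the PBS libraries alone, and Nr1h3 lies between 28.2 and 33.6 throughout.

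The effect of the miR-30c sequence, over that of an injected oligomer as such, is addressed by mimic against scramble. The genes of the drug receptors PXR and CAR were lower in mimic livers, Nr1i2 without a lower value when library totals were used, and the other 6 genes were not called. Those 2 of 8 stand against 32% of all genes called in this comparison, 17.3% higher and 14.7% lower, so the share among the 8 genes is near the background. Groups did not overlap for the same 2 genes, against 40.8% of all genes (21.6% higher, 19.2% lower).

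Nr1i2 encodes PXR, the receptor for steroids and drugs that controls Cyp3a genes. The gene lies at chr16:38248323-38294824 on the minus strand (GRCm38, the assembly of mm10, as for all positions here). It had 42.6, 53.7, 62.0 and 50.6 scaled CPM in mimic replicates 1 to 4, 80.04, 66.8 and 70.8 in scramble replicates 1 to 3, and 79.8, 64.5, 72.0 and 69.8 in PBS replicates 1 to 4. All 4 mimic libraries lay below all 7 control libraries. Nr1i2 fell by 0.48 ± 0.12 (SE) on the log2 scale against scramble and by 0.45 ± 0.11 against PBS, for limma adjusted p-values of 0.012 and 0.009. Without scramble replicate 1 the change against scramble was -0.40 at a limma adjusted p of 0.058. Without mimic replicates 1 and 4 the changes were -0.32 and -0.30, for limma adjusted p-values of 0.081 and 0.077. With library totals Nr1i2 was at 0.10 and 0.15, which is -0.39 and -0.36 relative to the median of all genes.

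Nr1i3 encodes CAR, which responds to phenobarbital-like inducers and controls Cyp2b and Cyp2c genes. It lies at chr1:171213970-171220701 on the plus strand. The gene had 58.6, 122, 114 and 79.5 scaled CPM in mimic replicates 1 to 4, 164, 166 and 159 in scramble replicates 1 to 3, and 185, 104, 149 and 170 in PBS replicates 1 to 4. Mimic and scramble livers did not overlap, while PBS replicate 2 fell within the mimic range. The lowest values belonged to mimic replicates 1 and 4, the libraries with the low Mup share. Nr1i3 fell by 0.85 ± 0.24 (SE) on the log2 scale against scramble and by 0.72 ± 0.23 against PBS, for limma adjusted p-values of 0.021 and 0.027.

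The call on Nr1i3 was close to the threshold. Against scramble the adjusted p by limma was between 0.052 and 0.061 without mimic replicate 4, scramble replicate 1, scramble replicate 2 or scramble replicate 3. Against PBS it was between 0.058 and 0.075 without mimic replicate 1 or 4 or PBS replicate 1, 3 or 4. With the replicate number as a block the limma adjusted p-values were 0.053 against scramble and 0.057 against PBS. Without mimic replicates 1 and 4 together the changes were -0.46 and -0.33, for limma adjusted p-values of 0.13 and 0.23. With library totals they were -0.27 and -0.12, or -0.76 and -0.62 relative to the median of all genes.

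Nr1i3 also overlaps another gene. Of its exonic bases over all transcripts of GENCODE M21, 74.9% (3304 of 4414) are exonic on the opposite strand in Tomm40l, which encodes a mitochondrial import channel protein. The kit keeps strand, but the sources used here do not say whether reads were counted by strand, so reads of Nr1i3 and Tomm40l cannot be told apart with certainty. Tomm40l had 38.5, 91.4, 83.1 and 56.0 scaled CPM in mimic replicates 1 to 4, 104, 111 and 117 in scramble replicates 1 to 3 and 145, 72.7, 109 and 130 in PBS replicates 1 to 4. Tomm40l ranked the mimic libraries and the PBS libraries in the same order as Nr1i3 did, but not the scramble libraries. It was the gene with the profile nearest to that of Nr1i3. Its log2 changes were -0.79 against scramble and -0.79 against PBS, for limma adjusted p-values of 0.053 and 0.035. The other overlaps were slight: 1.93% of the exonic bases of Cebpa and 1.35% of those of Nr1h3 were shared, and the antisense gene Hnf4aos shared 0 exonic bases with Hnf4a.

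The bases upstream of Nr1i2 and Nr1i3 are shown because these genes were lower together in the values as deposited. Each line gives the 250 bases before the RefSeq start on GRCm38.p6, read in the gene's direction, at chr16:38294825-38295074 on the minus strand and chr1:171213720-171213969 on the plus strand. The binding element of many nuclear receptors, AGGTCA, was searched on both strands and would stand in capitals.
Nr1i2 upstream: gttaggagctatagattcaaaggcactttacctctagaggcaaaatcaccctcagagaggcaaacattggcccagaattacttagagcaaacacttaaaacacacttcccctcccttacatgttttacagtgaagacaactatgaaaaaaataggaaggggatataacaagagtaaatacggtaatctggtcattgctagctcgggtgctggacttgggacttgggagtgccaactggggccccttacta
Nr1i3 upstream: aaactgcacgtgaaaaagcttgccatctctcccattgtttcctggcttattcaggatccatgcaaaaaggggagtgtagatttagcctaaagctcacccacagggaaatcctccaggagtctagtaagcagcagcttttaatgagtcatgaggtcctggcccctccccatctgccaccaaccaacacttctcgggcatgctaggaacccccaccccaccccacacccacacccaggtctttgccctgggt

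Neither window holds AGGTCA or its complement TGACCT. Of 13 such windows listed for the 8 genes, 2 held it, an Nr5a2 window at 1 place and an Rxra window at 2 places. It was present in 14% of all 32851 listed windows.

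Hnf4a encodes HNF4A, a regulator of apolipoprotein, coagulation and metabolic genes. Its position is chr2:163506808-163572910 on the plus strand. It had 199, 235, 237 and 186 scaled CPM in mimic replicates 1 to 4, 273, 208 and 373 in scramble replicates 1 to 3, and 269, 282, 240 and 266 in PBS replicates 1 to 4. All mimic libraries were below all PBS libraries, and scramble replicate 2 lay inside the mimic range. The log2 changes were -0.38 ± 0.17 (SE) against scramble and -0.31 ± 0.16 against PBS, for limma adjusted p-values of 0.11 and 0.14. Scramble replicates 2 and 3 were the lowest and the highest of that group, with a coefficient of variation of 29.2% in scramble livers against 6.77% in PBS livers. Without scramble replicate 2 the change against scramble was -0.58 at a limma adjusted p of 0.019, and without scramble replicate 3 it was -0.16. With library totals Hnf4a was at 0.21 and 0.30.

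Cebpa encodes C/EBPα, which promotes hepatocyte differentiation and gluconeogenic genes. Its single exon lies at chr7:35119293-35121928 on the plus strand. It had 157, 160, 125 and 139 scaled CPM in mimic replicates 1 to 4, 148, 143 and 154 in scramble replicates 1 to 3 and 162, 154, 144 and 145 in PBS replicates 1 to 4. The 3 groups overlapped. The log2 changes were -0.04 ± 0.10 (SE) against scramble and -0.06 ± 0.09 against PBS, for limma adjusted p-values of 0.77 and 0.59.

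Rxra (chr2:27676440-27762957, plus strand), the shared partner of PXR, CAR and LXRα, had 192, 225, 216 and 180 scaled CPM in mimic replicates 1 to 4, 222, 192 and 218 in scramble replicates 1 to 3 and 210, 216, 203 and 190 in PBS replicates 1 to 4. Its groups overlapped as well, and the log2 changes were -0.05 ± 0.10 (SE) and -0.01 ± 0.09, for limma adjusted p-values of 0.70 and 0.93. Within the mimic group Hnf4a, Nr1i2, Nr1i3 and Rxra each had their lowest 2 values in mimic replicates 1 and 4. Cebpa had its lowest value in mimic replicate 3.

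Nr1h3 encodes LXRα, which raises cholesterol efflux and lipogenic genes in hepatocytes and is also needed by Kupffer cells, the macrophages resident in liver. It lies at chr2:91184061-91202834 on the minus strand. The gene had 33.0, 31.5, 28.2 and 32.4 scaled CPM in mimic replicates 1 to 4, 30.8, 33.6 and 29.7 in scramble replicates 1 to 3 and 31.5, 31.7, 31.5 and 29.8 in PBS replicates 1 to 4. This was the narrowest spread of the 8 genes in mimic and PBS livers, with coefficients of variation of 6.86% and 2.76%. The log2 changes were -0.0055 ± 0.074 (SE) against scramble and 0.0050 ± 0.068 against PBS, both at a limma adjusted p of 0.96. In the same libraries the Kupffer cell genes Clec4f and Timd4, a lectin and a receptor for dying cells, fell. They are among the 5 of 9 Kupffer cell genes that were lower against scramble. Adgre1 at 0.28, Csf1r at 0.37 and Marco at -0.30 were not called. With library totals 3 of the 9 were higher and 4 lower. Clec4f averaged 4.71 ± 2.86 in mimic livers (SD, n = 4), 27.9 ± 9.70 in scramble livers (SD, n = 3) and 36.8 ± 8.33 in PBS livers (SD, n = 4). Timd4 averaged 0.155 ± 0.175, 2.84 ± 1.26 and 3.77 ± 1.06 in the same order. Cd5l, a secreted macrophage protein under LXR control, averaged 42.8 ± 11.5, 40.2 ± 12.2 and 47.8 ± 14.2 and was not called, at 0.09 against scramble at a limma adjusted p of 0.84.

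Nr5a2 encodes LRH-1, and is the gene whose 3′ UTR held the seed matches shown above. The gene spans chr1:136842571-136960448 on the minus strand. It had 23.4, 20.7, 19.5 and 23.6 scaled CPM in mimic replicates 1 to 4, 27.6, 22.5 and 23.6 in scramble replicates 1 to 3 and 26.04, 18.4, 22.4 and 32.7 in PBS replicates 1 to 4. The mimic libraries lay within the range of the 7 control libraries. The log2 changes were -0.17 ± 0.16 (SE) against scramble and -0.16 ± 0.15 against PBS, for limma adjusted p-values of 0.44 and 0.41, so a change was not detectable with this spread.

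**Figure D2:**
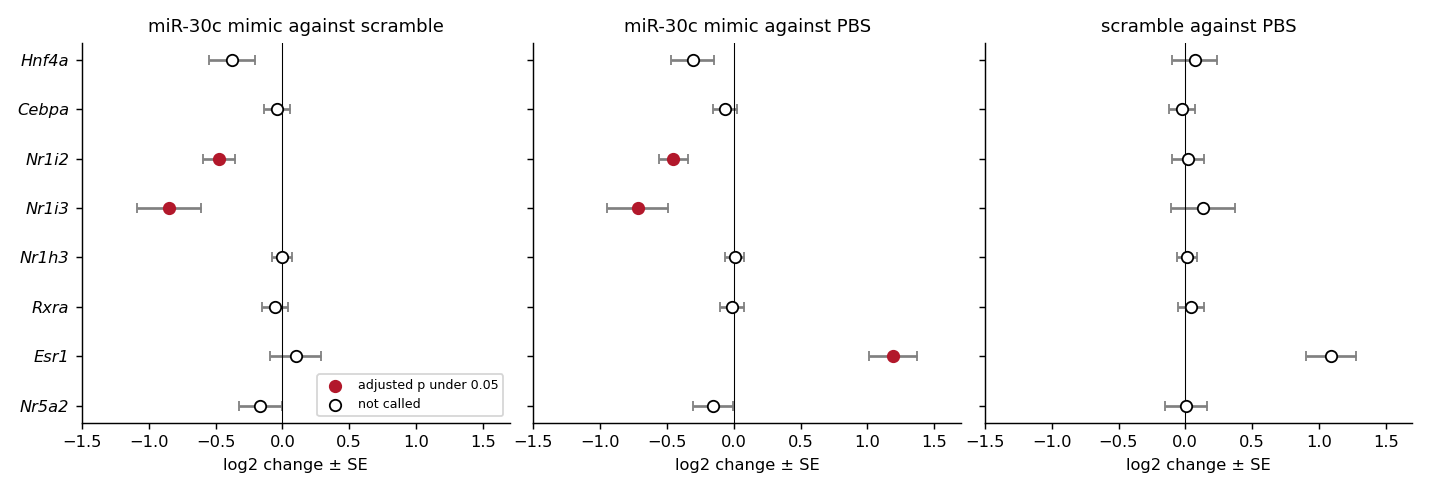
Log2 change ± SE of the 8 genes in mimic against scramble, mimic against PBS and scramble against PBS, with filled points for an adjusted p under 0.05 by limma. Nr1i2 and Nr1i3 are filled at -0.48 and -0.85 on the left, and Esr1 stands at 1.19 and 1.09 in the comparisons with PBS, filled in the first of these.

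The mimic was also set against the injection vehicle. Against PBS 1 of the 8 genes rose and 2 fell, beside 20% of all genes higher and 17.1% lower, 37.1% in all. Groups did not overlap for Hnf4a, Nr1i2 and Esr1, against 31.7% of all genes (17.2% higher, 14.5% lower). The comparisons with PBS share the 4 PBS libraries, so they are not independent.

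Esr1 encodes ERα, through which estrogen acts on lipid metabolism in the liver of both sexes. It spans chr10:4611593-5005614 on the plus strand. The gene had 14.3, 18.7, 14.2 and 14.6 scaled CPM in mimic replicates 1 to 4, 19.6, 10.9 and 13.5 in scramble replicates 1 to 3, and 4.67, 8.25, 6.69 and 5.6 in PBS replicates 1 to 4. Every library that had received an oligomer was above every PBS library, and mimic and scramble overlapped. The means were 15.4 ± 2.16 in mimic livers (SD, n = 4), 14.7 ± 4.47 in scramble livers (SD, n = 3) and 6.30 ± 1.54 in PBS livers (SD, n = 4). Esr1 rose by 1.19 ± 0.18 (SE) on the log2 scale in mimic against PBS, at a limma adjusted p of 0.00061. It was called in all 23 alternatives, library totals included, with changes between 1.07 and 1.74. Between mimic and scramble its change was 0.10 ± 0.19 (SE), at a limma adjusted p of 0.73, and -0.08 without scramble replicate 2. With library totals it was 0.65 at a limma adjusted p of 0.038, or 0.16 relative to the median of all genes.

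Scramble against PBS addresses the effect of an oligomer without the miR-30c sequence. By limma, 0 of the 8 genes and 0 of all 13636 genes (0%) passed an adjusted p of 0.05, and 434 genes had an unadjusted p under 0.05. Esr1 had a log2 change of 1.09 ± 0.19 (SE), an unadjusted p of 0.00013 and an adjusted p of 0.56 by limma. That p was the 2nd smallest of the 13636. Its adjusted p by limma stayed between 0.14 and 1 over 21 alternatives, so Esr1 was not called in this comparison under any of them. Its groups did not overlap, as for 4.72% of all genes (2.33% higher, 2.39% lower). Of the other 7 genes, the log2 changes lay between -0.02 for Cebpa and 0.13 for Nr1i3, and their groups overlapped.

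**Figure D3:**
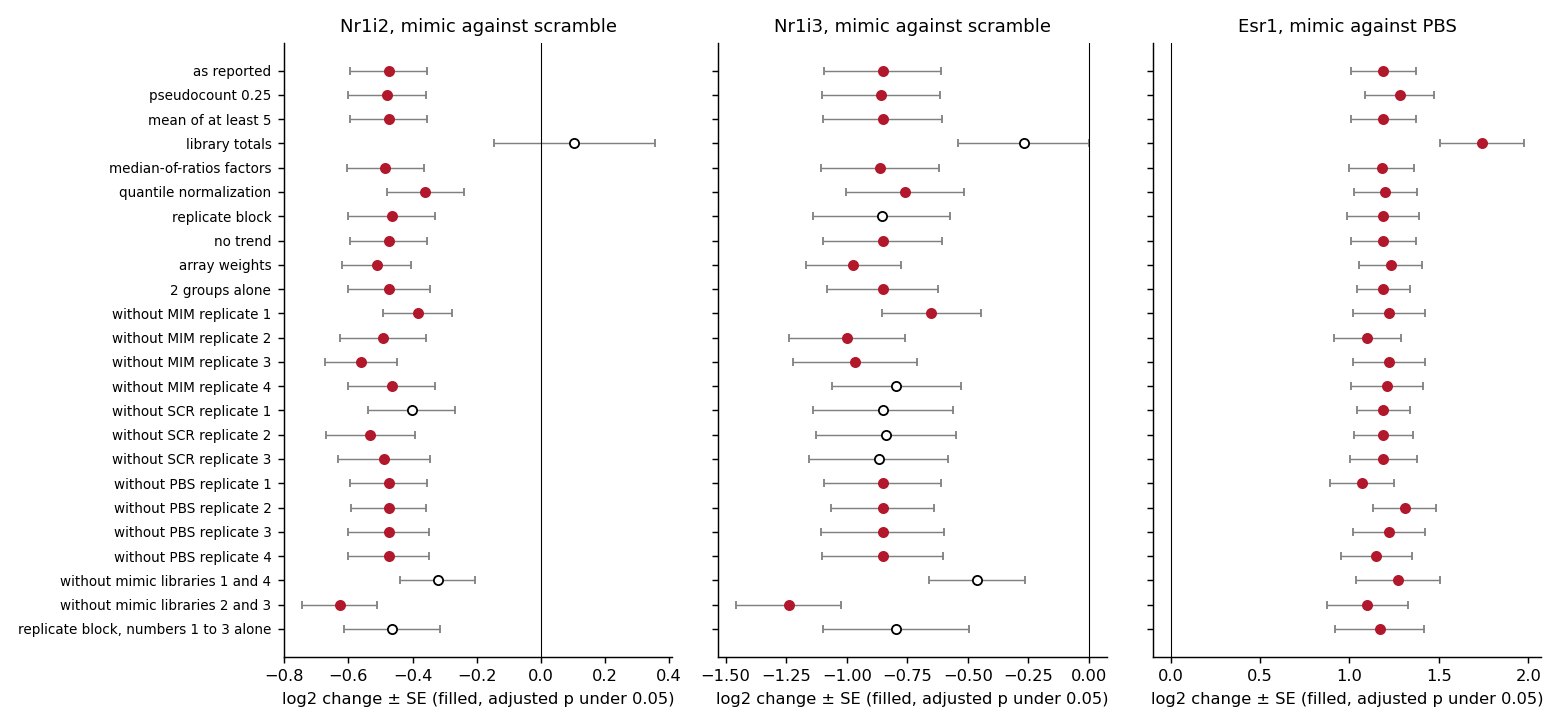
Log2 change ± SE of Nr1i2 and Nr1i3 in mimic against scramble and of Esr1 in mimic against PBS under each processing setting or left-out library, with filled points for an adjusted p under 0.05 by limma. Esr1 is filled in every row, Nr1i3 loses its call in several rows, and library totals shift Nr1i2 to 0.10.

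The genes with the most similar profiles were ranked by the root mean square difference of centred log2 values over the 11 libraries, for the 7916 genes whose mean reached 5. The nearest to Nr1i2 were Nedd4 and Wbp1l at 0.076 and 0.076, where Nr1i2 itself varied by 0.27 about its mean. After Tomm40l at 0.089, the nearest to Nr1i3 was the cytochrome P450 gene Cyp2c54 at 0.13. Hnf4a was nearest to Il15ra and Golga3, Cebpa to Fam168a and Scaf1, Nr1h3 to the citrate carrier gene Slc25a1 and to Elp5, Rxra to Oxa1l and Ppp6r1, and Nr5a2 to AK009182 and Tcf7l2. Esr1 varied by 0.61 about its mean, and Pfkfb1, a regulator of glycolysis, and the chromatin remodeller gene Chd9 were nearest to it at 0.36 and 0.37.

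The genes around the 8 factors were counted in lists written from general knowledge. In mimic against scramble the median log2 change of all genes was 0.0033, with 17.3% of them called higher and 14.7% lower. Against PBS these shares were 20% and 17.1%. With library totals 5498 of 13636 genes were higher and 110 lower against scramble, and 6882 and 120 against PBS. Without mimic replicates 1 and 4, 1577 were higher and 971 lower against scramble, and 1752 and 1142 against PBS. The list counts below stand beside these. The list medians below are given as deposited and with library totals, where the median of all genes was 0.49.

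Of 30 other nuclear receptors measured, 6 were lower and 2 higher against scramble (median -0.20), which turned to 1 lower and 7 higher with library totals (median 0.37). Against PBS 8 were lower and 3 higher, or 2 lower and 11 higher with library totals. Ppara, the fasting receptor of fatty acid oxidation, averaged 150 ± 31.9 in mimic livers (SD, n = 4), 237 ± 31.0 in scramble livers (SD, n = 3) and 205 ± 13.8 in PBS livers (SD, n = 4). Its log2 change against scramble was -0.67 at a limma adjusted p of 0.0067. The thyroid hormone receptor genes moved in opposite directions, Thrb by -0.70 and Thra by 0.52. Against PBS Ppara and Thrb were called lower at -0.46 and -0.53, and both changed sign with library totals. Against scramble they kept their sign in that setting. The glucocorticoid receptor gene Nr3c1 changed by -0.53 and Rxrg, a relative of Rxra at values near 2, by 0.50, with Nr3c1 at 0.04 with library totals.

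Of 25 other liver-enriched transcription factors, 9 were lower and 0 higher against scramble (median -0.23), which turned to 1 lower and 7 higher with library totals (median 0.31). Against PBS 5 were lower and 1 higher, or 0 lower and 8 higher with library totals. Cebpg, a partner of other C/EBP proteins, averaged 14.6 ± 0.693 in mimic livers (SD, n = 4), 21.2 ± 0.330 in scramble livers (SD, n = 3) and 22.8 ± 2.36 in PBS livers (SD, n = 4). Cebpg, Nfib and Onecut2 changed by -0.52, -0.55 and -0.56 against scramble, or by 0.04, 0.03 and 0.01 with library totals. Without mimic replicates 1 and 4, 3 of this list were lower against scramble and 0 higher, and of the other nuclear receptors 4 were lower and 0 higher (3 and 0 against PBS). Of 18 coregulators, 1 was lower and 0 higher (median -0.19, or 0.37 with library totals). It was Ncor1, a corepressor of nuclear receptors, at -0.58, or 0.0022 with library totals. The coactivator genes Ppargc1b and Ncoa2 were at -0.60 and -0.31, for limma adjusted p-values of 0.052 and 0.075.

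Known targets of PXR and CAR, whose genes were lower in the values as deposited, were counted next. Whether the targets followed these genes was not tested. Of all genes, 14.7% were lower and 17.3% higher against scramble. Of 10 measured PXR targets, 3 were lower and 1 higher against scramble (median -0.26, or 0.11 with library totals). Cyp3a11, the main drug-oxidizing P450 of this family, averaged 195 ± 55.7 in mimic livers (SD, n = 4), 1043 ± 175 in scramble livers (SD, n = 3) and 1109 ± 318 in PBS livers (SD, n = 4). It fell by 2.45 against scramble, the carboxylesterase Ces2a by 0.87 and the bilirubin glucuronosyltransferase Ugt1a1 by 0.93, while the glutathione transferase Gstm2 rose by 1.03. Of 14 CAR targets, 5 were lower and 0 higher (median -0.31, or 0.17 with library totals). Besides Ugt1a1, which is on both lists, Cyp2c37 fell by 0.91 and Cyp2c29 fell by 1.61. Reads of these P450 and Ugt1a genes may be split among near-identical relatives, which makes their values uncertain. Against PBS the counts were 3 lower and 1 higher for PXR targets and 4 lower and 0 higher for CAR targets. Without mimic replicates 1 and 4, 3 targets of each receptor were lower and 0 higher against scramble. With library totals 1 PXR target was lower and 3 higher, and 1 CAR target was lower and 2 higher, the lower ones being Cyp3a11 at -1.87 and Cyp2c29 at -1.02. Against PBS they were then 1 lower and 3 higher for PXR targets and 0 lower and 3 higher for CAR targets.

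Of 13 HNF4A targets, 4 were lower and 0 higher against scramble (median -0.16, or 0.43 with library totals), beside 14.7% and 17.3% of all genes. The lipid transfer protein gene Mttp, itself a known miR-30c target, fell by 0.82, the apolipoprotein gene Apoa2 by 0.56 and the urea cycle enzyme Otc by 0.50, with Apoa2 and Otc at 0.03 and 0.09 with library totals. Of 11 C/EBPα targets, 2 were lower and 1 higher (median -0.31, or 0.28 with library totals). Those that fell were Ugt1a1 and the glycogen synthase Gys2, the second by 0.87, and the one that rose was the acute phase protein gene Hp, by 2.29. Hp averaged 4717 ± 1801 in mimic livers (SD, n = 4), 917 ± 87.3 in scramble livers (SD, n = 3) and 889 ± 153 in PBS livers (SD, n = 4).

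Of 14 LXR targets, 3 were higher and 1 lower against scramble (median 0.04, or 0.62 with library totals), and 5 were higher and 2 lower against PBS. Of all genes, 17.3% were higher and 14.7% lower against scramble, and 20% and 17.1% against PBS. Lpl, the lipoprotein lipase, rose by 1.06, the sterol exporter Abcg1 by 0.97 and Arl4c by 0.72, while the desaturase Scd1 fell by 1.0. Macrophages express Lpl and Abcg1 too, and their markers rose in the same libraries as given above. The part of macrophages in these changes was not tested. Of 8 LRH-1 targets, 1 was higher and 0 lower (median -0.09, or 0.49 with library totals). It was Scarb1, the receptor for high-density lipoprotein, at 0.38, and without mimic replicates 1 and 4, 2 were higher and the median turned to 0.11. Of 6 measured estrogen receptor targets, 2 were higher and 1 lower (median -0.17, or 0.39 with library totals). Ctsd, a lysosomal protease, rose by 0.72 and Ltf, also a neutrophil marker, by 1.41, and Cited2 fell by 0.49, or was at 0.02 with library totals. In mimic against PBS, 2 were higher and 1 lower, with a median of -0.07. In scramble against PBS 0 of the 6 were called, as for all genes, with a median of -0.035. Without mimic replicates 1 and 4 the medians of the mimic comparisons turned to 0.21 against scramble and 0.23 against PBS. Of 10 genes of FXR and bile acids, 1 was higher, the growth factor receptor Fgfr4 at 0.62, and 1 lower, the phospholipid exporter Abcb4 at -0.69 (median -0.16, or 0.41 with library totals). The third named gene of that list, Cyp27a1, a sterol hydroxylase, was at -0.40 at a limma adjusted p of 0.053. Without mimic replicates 1 and 4, 0 of this list were called against scramble.

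With library totals no gene of the remaining lists was called lower against scramble, beside 110 of all 13636 genes. Called higher were then 2 coregulators, 3 HNF4A targets, 1 C/EBPα target, 7 LXR targets, 3 LRH-1 targets, 3 estrogen receptor targets and 1 gene of FXR and bile acids. Of all 13636 genes, 5498 were called higher in that setting.

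**Figure D4:**
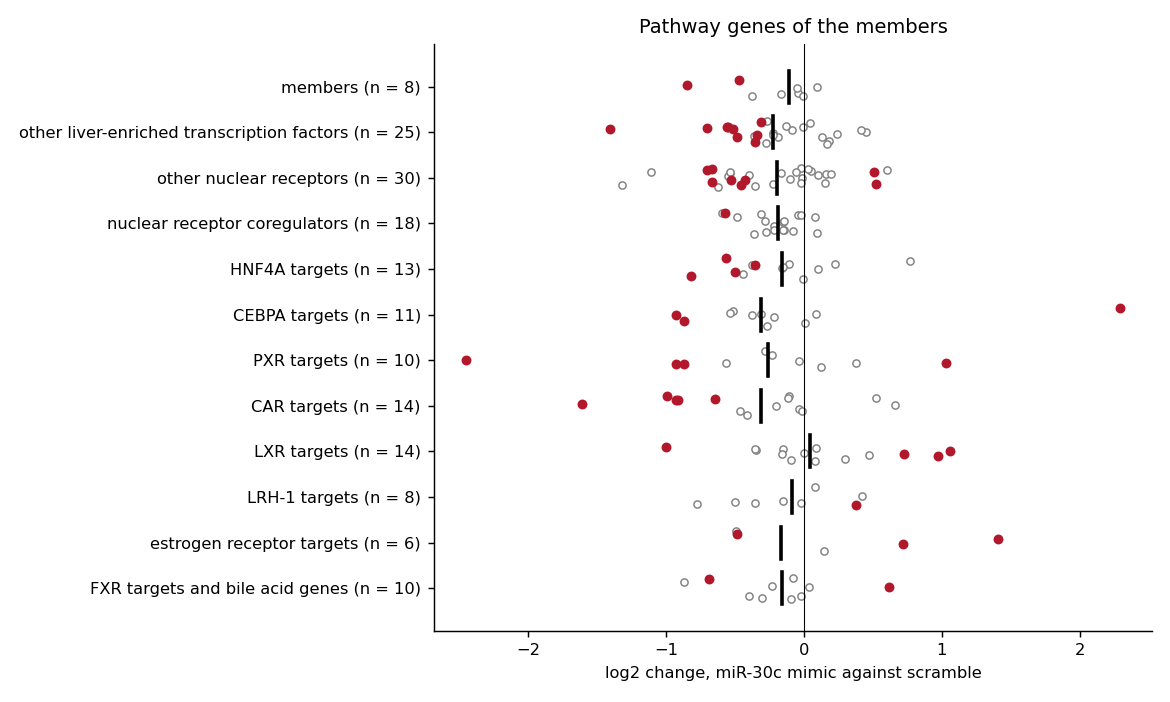
Log2 change in mimic against scramble of each measured gene of the 8 factors and of the lists around them, with filled points for an adjusted p under 0.05 by limma and a bar at each list's median. Filled points lie mostly to the left of 0 for transcription factors, nuclear receptors and the targets of HNF4A, C/EBPα, PXR and CAR. Hp, a C/EBPα target, stands at 2.29 far to the right. With library totals most called genes of these lists were higher. Their medians were then 0.31, 0.37, 0.43, 0.28, 0.11 and 0.17 in that order, above 0 but below the 0.49 of all genes.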

How the data were processed

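Per the labels' protocols, RNA of frozen liver was made into stranded mRNA libraries and sequenced as paired-end reads of 48 bases. Tools named, per the submitters' processing notes, were edgeR 3.8.6, R 3.1.2, Bowtie, bedtools 2.17.0, FastQC 0.11.3, SAMtools 0.1.19 and bcl2fastq 1.8.4, with build mm10. Settings, annotation and strand use are not given in the sources used here. The deposited values are a scaled signal, CPM with a factor per library. All values (100%) were whole multiples of 1 step per library (tolerance 1e-06), which gave the reads per gene. Count tests were not used, since too few low values remained to check that recovery.

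limma 3.58.1 (R 4.3.3) was fitted on log2(value + 1) over all 11 libraries, with 3 group means and a mean-variance trend. p-values were adjusted by Benjamini-Hochberg over 13636 genes, at a threshold of 0.05. The fit was first tested on simulated data. The 8 genes and all lists were chosen with earlier results of these data known, so no list was tested as a set. Named were the 8 genes, the 3 genes of each list with the smallest p against scramble, genes called against the direction of most of their list, and the 2 nearest profiles per gene. Exon lengths (basic transcripts) and 3′ UTRs came from GENCODE M21, and all 8 genes matched RefSeq by symbol. Of 8 lymphocyte markers 0 were in the table.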

Additional observations from a re-analysis of the deposited data

Results flagged for a closer look

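In groups of 4 libraries, the gap of the highest or lowest library to the next was compared with the range of the group, over 16 groups of the 8 genes. Chance marks about 1 in 20 groups, and 2 were marked. Esr1 was 18.7 scaled CPM in mimic replicate 2, above the other mimic libraries, which lay between 14.2 and 14.6. Nr1h3 was 29.8 in PBS replicate 4, below the other PBS libraries, which lay between 31.5 and 31.7.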

How the results depend on the processing

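The calls on Nr1i2 and Nr1i3 depended on the libraries and on the scaling, and that on Esr1 in mimic against PBS was kept under every alternative run. For results that reversed or lost a call, the cause was not tested. Division by library totals left 1 gene of the 8 called in mimic against scramble, beside 41.1% of all genes, Esr1 at 0.65, with Hnf4a at 0.21, Cebpa at 0.54, Nr1i2 at 0.10, Nr1h3 at 0.57, Rxra at 0.53 and Nr5a2 at 0.40. In mimic against PBS it gave Hnf4a 0.30, Cebpa 0.54, Nr1i2 0.15, Rxra 0.60 and Nr5a2 0.43, with Rxra and Nr1h3 (0.60) then called higher beside Esr1 and 51.3% of all genes called. Quantile normalization gave Cebpa 0.082, Nr1h3 0.069 and Rxra 0.065 in mimic against scramble and Cebpa 0.049 and Rxra 0.10 in mimic against PBS. Under it Nr1i3 in mimic against PBS was -0.61 at a limma adjusted p of 0.051, and in scramble against PBS Nr1i2 was -0.024, Nr1h3 -0.0031 and Nr5a2 -0.012. Median-of-ratios factors gave Nr1h3 -0.0060 in mimic against PBS. Library weights gave Nr1h3 0.011 in mimic against scramble, and Nr1i2 -0.022 and Nr5a2 -0.040 in scramble against PBS.

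A filter at a mean of 5 left 2816 genes called in mimic against scramble and 3273 in mimic against PBS, of 8238 tested, 37.6% and 40.1% of them higher. Fits of 2 groups alone called 5 genes in scramble against PBS. Without mimic replicates 1 and 4, 2548 genes (18.7%) and 0 of the 8 were called in mimic against scramble, with Rxra at 0.068, and 2894 genes (21.2%) and 1 of the 8 in mimic against PBS, with Nr1h3 at -0.060 and Rxra at 0.11. Without mimic replicates 2 and 3, chosen after seeing the data, Nr1h3 was 0.059 in mimic against scramble.

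The replicate numbers were not taken to pair the libraries: over 10 same-numbered pairs the correlation of deviations ran from -0.28 to 0.26, with 3 above 0.1, and 3 of 11 libraries correlated best with their own number. Both the pairs and the libraries were those of number 3. These libraries also had the most reads and the highest Mup share of their groups, at 41.3% in mimic, 50.0% in scramble and 52.9% in PBS. Whether they shared a batch was not tested. With the replicate number as a block, 1 of the 8 genes was called in mimic against scramble beside 27.9% of all genes, Nr1i3 was -0.86 and -0.72 against scramble and PBS (limma adjusted p 0.053 and 0.057), and Rxra was -0.0044 in scramble against PBS. The block on numbers 1 to 3 alone, also chosen after seeing the data, called 0 of the 8 in mimic against scramble beside 21.8% of all genes, with Rxra at 0.0023. It called 2363 genes (17.3%) and 1 of the 8 in mimic against PBS, with Nr1h3 at -0.032 and Rxra at 0.0085, and Nr1h3 was -0.0090 in scramble against PBS.

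Leaving out 1 library at a time called 2824 to 4904 genes and 0 to 2 of the 8 in mimic against scramble, the lowest of both without scramble replicate 1. Changes there ran from -0.089 to 0.030 for Cebpa, -0.044 to 0.045 for Nr1h3, -0.12 to 0.0023 for Rxra and -0.080 to 0.31 for Esr1. In mimic against PBS they ran from -0.11 to 0.0055 for Cebpa, -0.020 to 0.053 for Nr1h3 and -0.062 to 0.043 for Rxra. In scramble against PBS 0 to 1 genes were called, 1 without PBS replicate 1, and changes ran from -0.052 to 0.0079 for Cebpa, -0.15 to 0.27 for Hnf4a, -0.051 to 0.078 for Nr1i2, -0.038 to 0.24 for Nr1i3, -0.040 to 0.049 for Nr1h3 and -0.12 to 0.14 for Nr5a2. A pseudocount of 0.25 and a fit without the trend turned no direction of the 8 genes and moved no call on them. Count tests with edgeR and DESeq2 were not run. Esr1 had the fewest reads of the 8 genes, 310 to 1324 per library.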
